A study of Mus musculus with 4 samples.

Results

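The electrolyte and water transport genes of the mouse colon were described as a set of 45 genes chosen by function: sodium-proton and anion exchangers, carbonic anhydrases, bicarbonate and cation-chloride cotransporters, ion pumps, the epithelial sodium channel with its regulators, chloride and potassium channels, and water channels. A member was measured where at least 1 probe set named it and no other gene, and its value was the mean over such probe sets. This gave 44 of the 45 members, out of 19938 genes measured that way. The bicarbonate cotransporter Slc4a7 was not analysed here. By their textbook roles, 19 members were assigned to absorption and 10 to secretion, of which 9 were measured, and 16 were assigned to neither. Members and roles were chosen with earlier results of these data known.

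The samples were laser-captured colon cells of male C57BL/6 mice, 11 weeks old, all of which ate a diet low in calcium with 40% of its energy from fat for 14 days. The heme groups had heme, the iron-porphyrin pigment of red meat, added to it at 0.5 µmol/g, and the control groups ate it without heme. Cells of the surface and of the crypts were captured separately from frozen rolls of the middle 2 cm of the colon, and RNA was pooled over 3 mice on heme and over 4 mice on the control diet, with 100 ng per labelling. Both pools of a diet drew on the same mice. Each of the 4 groups (heme surface, control surface, heme crypt and control crypt) was therefore 1 pool on 1 Affymetrix whole-transcript array, so no value below has a replicate, a standard deviation or a test.

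Colonocytes near the surface take up salt and water. The exchangers NHE3 and DRA bring in sodium and chloride in exchange for protons and bicarbonate, which carbonic anhydrases supply, and in the distal colon the epithelial sodium channel ENaC adds sodium uptake under the control of aldosterone. Crypt cells can secrete: the cotransporter NKCC1 loads chloride at the basal side, the channel CFTR lets it out into the lumen, and basolateral potassium channels keep up the driving force.

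Values are log2 expression values, and a difference of 1 is 2-fold. Higher and lower, in counts, mean that the difference was at least 2-fold and at least 1 array compared reached 5.75, the median of all gene values, called the floor here. That is a rule of size and not a test. Of the 44 measured members, 34 reached the floor on all 4 arrays and 40 on at least 1. Aqp3, Aqp7, Slc26a6 and Slc4a1 lay below it on every array. Medians of all 35556 probe sets lay between 5.42 and 5.54, and arrays of the 2 diets had a Pearson's r of 0.979 in surface and 0.986 in crypt cells. The compartment labels were checked with 2 lists. All 11 surface colonocyte markers that reached the floor were higher in surface cells on the control diet, with a median difference of 3.49 over the 12 measured. All 10 crypt base and progenitor markers that reached it were lower there, with a median of -2.31 over the 11 measured. In pools such as these, fewer cells of a type and less RNA per cell cannot be told apart.

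Promoter sequence was found for 30 of the 45 members in a RefSeq table of build GRCm38.p6, and the windows of 5 members that the results turn on are shown because their values moved in one compartment or mark the hormone pathway. Each is the 250 bases before an annotated start, on the plus strand, in lower case. Capitals mark matches to 1 of 5 motifs that were searched on both strands. In Aqp8 (chr7:123462044-123462293) and Slc9a3 (chr13:74121163-74121412) the capitals are an E-box, and in Slc26a3 (chr12:31437969-31438218) a TATA box. In Sgk1 they are an E-box and a corticosteroid receptor element in the window of the fifth of its 6 listed starts (chr10:21993640-21993889). The window of Scnn1g (chr7:121734229-121734478) held none of the letters searched. Slc4a4 also moved in one compartment, but its 2 windows are not shown, and they held none of the letters either.
Aqp8: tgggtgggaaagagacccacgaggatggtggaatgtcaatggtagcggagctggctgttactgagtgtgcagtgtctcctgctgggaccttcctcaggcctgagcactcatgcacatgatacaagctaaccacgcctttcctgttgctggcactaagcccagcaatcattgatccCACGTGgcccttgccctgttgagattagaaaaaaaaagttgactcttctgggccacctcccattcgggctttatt
Slc9a3: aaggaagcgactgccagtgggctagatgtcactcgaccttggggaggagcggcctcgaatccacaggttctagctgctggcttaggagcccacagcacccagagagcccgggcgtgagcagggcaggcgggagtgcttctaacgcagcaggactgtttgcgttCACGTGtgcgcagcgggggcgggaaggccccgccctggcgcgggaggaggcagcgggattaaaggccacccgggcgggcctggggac
Slc26a3: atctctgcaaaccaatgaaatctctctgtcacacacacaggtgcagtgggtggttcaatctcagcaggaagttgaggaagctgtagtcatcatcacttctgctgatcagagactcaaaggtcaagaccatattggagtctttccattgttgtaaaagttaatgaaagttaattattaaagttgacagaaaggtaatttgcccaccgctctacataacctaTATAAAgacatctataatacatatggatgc
Scnn1g: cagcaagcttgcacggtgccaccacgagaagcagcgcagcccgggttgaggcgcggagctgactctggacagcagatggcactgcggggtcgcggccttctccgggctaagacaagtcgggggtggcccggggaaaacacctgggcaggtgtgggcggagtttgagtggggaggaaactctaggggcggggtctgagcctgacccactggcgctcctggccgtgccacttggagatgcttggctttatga
Sgk1: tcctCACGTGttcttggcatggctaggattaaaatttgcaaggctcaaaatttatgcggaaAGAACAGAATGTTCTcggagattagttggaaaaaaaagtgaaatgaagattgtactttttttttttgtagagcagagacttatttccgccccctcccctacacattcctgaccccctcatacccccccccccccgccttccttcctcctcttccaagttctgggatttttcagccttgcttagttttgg

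The E-box searched was CACGTG, which 6.02% of the 32851 windows in the table held. It lay 75 bases before the start in Aqp8, 87 in Slc9a3 and 246 in Sgk1, and also occurred in Atp1b3, Kcnn4 and Slc12a7. The corticosteroid receptor element was searched as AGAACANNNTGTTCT, an inverted repeat of 1 half-site, and the match in Sgk1, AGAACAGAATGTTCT, began 189 bases before the start. It was 1 of 3 windows in the table with that element (0.00913%). The element was chosen with its matches known and Sgk1 has 6 listed starts, so that low share carries no weight. TATAAA was present in 12.4% of windows and lay 30 bases before the start in Slc26a3. Windows of Aqp3, Slc4a7 and other starts of Sgk1 also held it. The antioxidant response element core TGACNNNGC (10.2% of windows) matched in Atp1b3 and Slc4a7, and the CDX site TTTATNG (9.81%) in Slc12a8. No motif searched contains another. These matches describe letters and say nothing of binding.

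On both diets most absorptive genes stood higher in surface cells and most secretory genes higher in crypt cells. On heme, 20 of the 40 members that reached the floor were higher in surface cells and 9 were lower, against 15.3% and 16.5% of all genes. On the control diet, 19 of 40 were higher and 10 lower, against 12.0% and 13.5% of all genes. Of the 19 absorptive members, 14 were higher in surface cells on both diets and none was lower on both. Of the 9 secretory members measured, 5 were lower on both diets, and 1, Ano1, was higher on both. The share of all genes called on both diets was not counted. The median difference between surface and crypt was 2.93 on heme and 2.54 on the control diet for absorptive members, and -2.24 on heme and -2.05 on control for secretory members. For the 16 members assigned to neither it was 0.54 on heme and 0.24 on control, and over all genes measured 0.00 and 0.06. Because roles were assigned with earlier results of these data known, the gap between the arms is a description and no independent support.

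**Figure D1:**
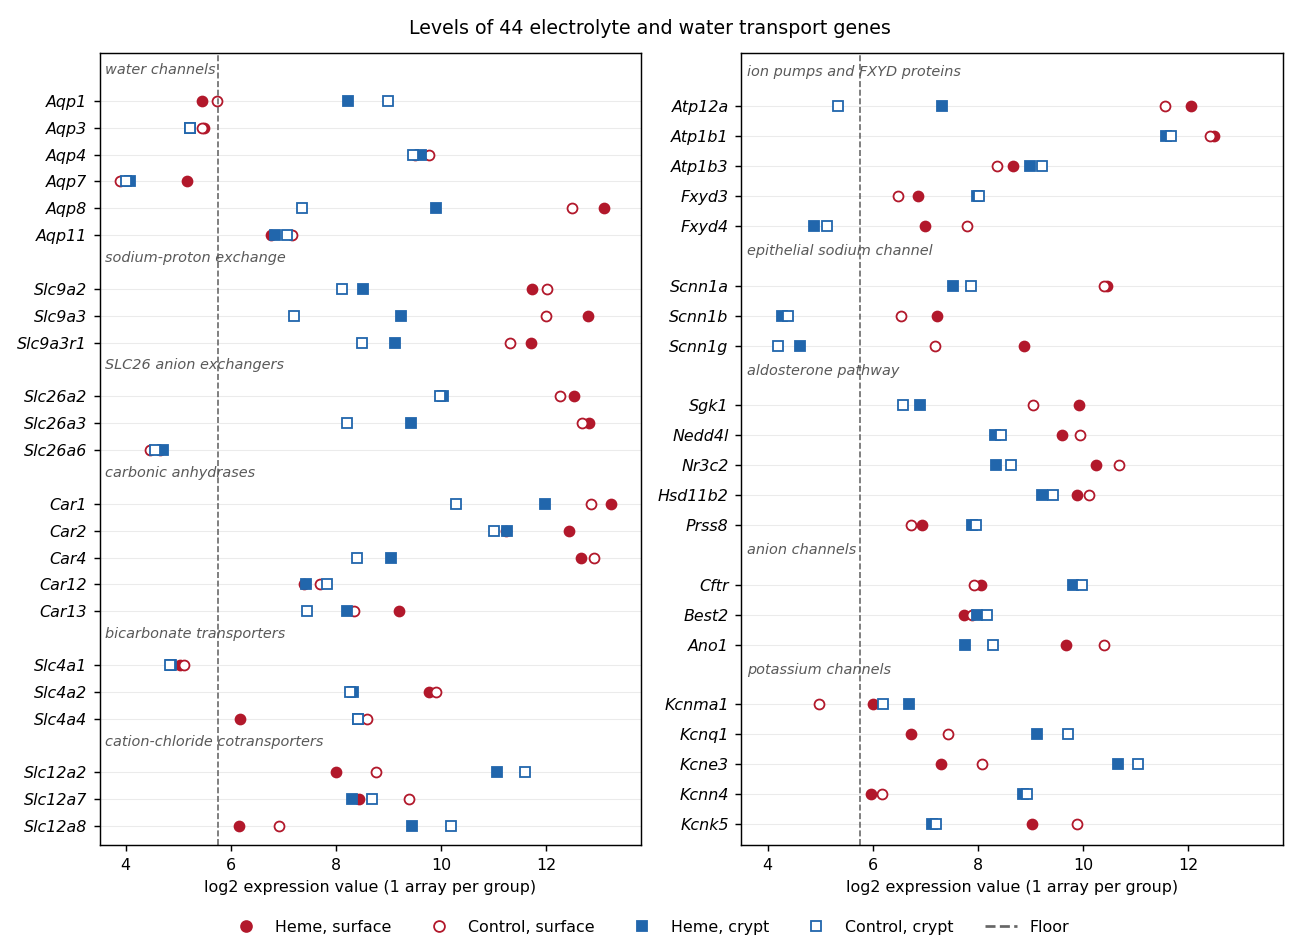
Log2 expression value of each of the 44 measured members on the 4 arrays, grouped by role. Red circles are surface pools and blue squares crypt pools, filled on heme and open on the control diet, and the dashed line is the floor of 5.75. Slc9a2, Slc9a3, Slc26a3, the ENaC subunits and Atp12a have both circles to the right of both squares, whereas Slc12a2, Cftr, Kcnq1, Kcne3 and Kcnn4 have them to the left.

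**Figure D2:**
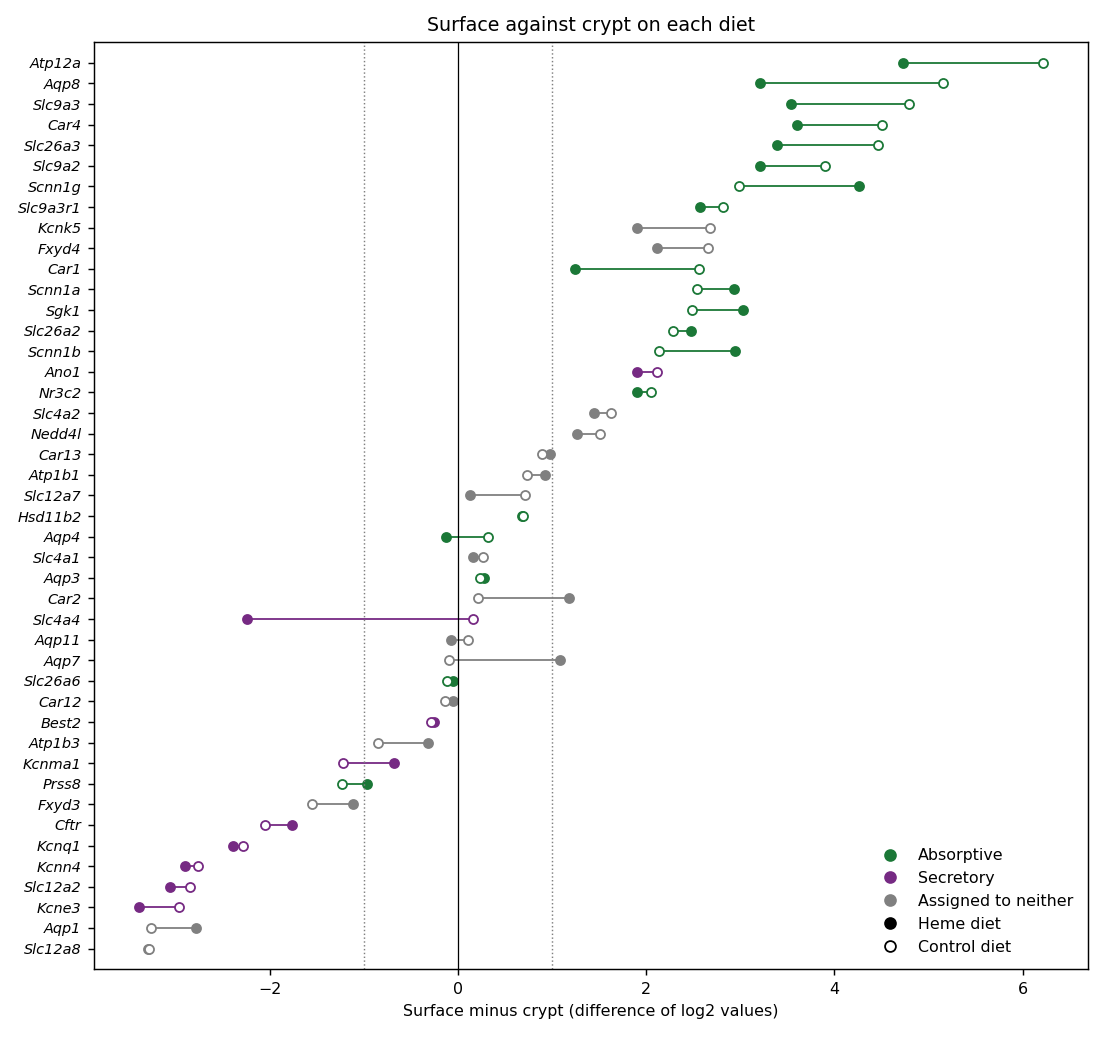
Difference of log2 values between surface and crypt cells for each measured member, filled circles on heme and open circles on the control diet, with green for absorptive, purple for secretory and grey for members assigned to neither. Dotted lines mark 2-fold. Most absorptive members lie at the upper end and most secretory members at the lower. Ano1, Prss8 and Slc26a6, the last below the floor on all arrays, lie on the other side of 0 from their arm on both diets. Absorptive Aqp4 does so on heme alone, at -0.13. Slc4a4 lies at -2.24 on heme and 0.16 on control. Members between the dotted lines can change sign with the scaling, as Best2, Car12 and Atp1b3 did.

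RMA gives all arrays similar distributions, and the choice of scale matters for this contrast. The 53 cytosolic ribosomal protein genes had medians of 9.58 and 9.75 in heme and control surface cells, against 10.69 and 10.90 in heme and control crypt cells. With each array centred on them, the median surface-crypt difference of all genes became 1.06 on heme and 1.10 on control. With that scaling 5681 genes were higher and 355 lower on heme, and 6023 higher and 157 lower on control. No member past 2-fold in this contrast changed sign. Cftr, at -1.76 on heme and -2.05 on control, then came to -0.65 and -0.90, both still far below the median of all genes.

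Among the sodium-proton exchange genes, Slc9a3 encodes NHE3, the main apical sodium-proton exchanger of the colon. It had 12.78 in heme surface and 12.00 in control surface cells, against 9.24 in heme crypt and 7.20 in control crypt cells. Both surface arrays were above both crypt arrays, and the difference was 3.54 on heme and 4.80 on control. Slc9a2, which encodes the related exchanger NHE2, had 11.73 and 12.01 in heme and control surface cells, against 8.52 and 8.11 in heme and control crypt cells. The scaffold gene Slc9a3r1, whose product NHERF1 holds NHE3 at the brush border, was higher in surface cells by 2.58 on heme and by 2.82 on control.

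Slc26a3 encodes DRA, the chloride-bicarbonate exchanger whose loss in people causes congenital chloride diarrhoea. Its values were 12.81 and 12.67 in heme and control surface cells, against 9.42 in heme crypt and 8.20 in control crypt cells. It was 10.5-fold higher in surface cells on heme and 22.1-fold higher on control. The sulfate transporter gene Slc26a2 was higher in surface cells by 2.48 on heme and 2.28 on control, with almost the same levels on both diets: 12.52 and 12.27 in heme and control surface cells, 10.04 and 9.99 in heme and control crypt cells. Slc26a6, which encodes another apical anion exchanger, stayed between 4.45 and 4.71 on all arrays.

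The pump gene Atp12a, the catalytic subunit of the colonic proton-potassium ATPase, which reclaims potassium, had the largest difference of all members on both diets. It had 12.05 and 11.56 in heme and control surface cells, against 7.32 in heme crypt and 5.34 in control crypt cells. Surface cells were 26.5-fold higher on heme and 74.2-fold higher on control, but the control crypt value was under the floor. On a scale that adds 32 to the linear signal and so shrinks dim values, the difference on control was 5.39, against 6.21 as measured. The sodium pump's beta subunit gene Atp1b1 differed by 0.92 on heme and 0.73 on control. Atp1b3, another beta subunit, lay at -0.31 and -0.85, signs that turned under ribosomal centring. Of the FXYD proteins that tune the sodium pump, Fxyd4 was higher in surface cells by 2.12 on heme and 2.66 on control, and Fxyd3 was lower, at -1.11 on heme and -1.54 on control. For Fxyd3 neither passed 2-fold under ribosomal centring, and the value on heme was also short of it on the scale that adds 32, at -0.93. The crypt values of Fxyd4 were below the floor at 4.88 on heme and 5.12 on control. On the scale that adds 32 its difference on heme was 1.38.

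Carbonic anhydrases turn carbon dioxide and water into bicarbonate and protons. Car4, anchored at the outer membrane, had 12.66 and 12.91 in heme and control surface cells, against 9.05 and 8.40 in heme and control crypt cells, a difference of 3.61 on heme and 4.51 on control. Cytosolic Car1 was higher in surface cells by 1.24 on heme and 2.56 on control. Cytosolic Car2 passed 2-fold on heme alone, at 1.18 against 0.22 on control. Car13, also cytosolic, stood just under the size rule at 0.98 on heme and 0.89 on control. Membrane-bound Car12 differed by -0.05 on heme and -0.14 on control, and both values turned positive under ribosomal centring. Car1 and Car2 are also abundant in erythrocytes, and none of the 6 erythrocyte markers measured reached the floor on any array, with a range from 2.74 to 5.20. The 4 haemoglobin probe sets, which each name several genes, lay between 6.77 and 8.00 on the heme surface array, 6.72 and 8.04 on the control surface array, 5.87 and 7.20 on the heme crypt array and 6.53 and 8.09 on the control crypt array. They were thus lowest on the heme crypt array, and their part in the Car1 and Car2 values was not tested.

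All 3 ENaC subunits were higher in surface cells on both diets. Scnn1a, the alpha subunit, had 10.46 and 10.40 in heme and control surface cells, against 7.52 and 7.86 in heme and control crypt cells. Scnn1b, the beta subunit, had 7.22 and 6.53 in heme and control surface cells, against 4.28 and 4.39 in heme and control crypt cells. Scnn1g, the gamma subunit, had 8.87 in heme surface and 7.18 in control surface cells, against 4.61 and 4.20 in heme and control crypt cells. Crypt values of the beta and gamma subunits were below the floor on both diets. Their differences were therefore sensitive to the treatment of dim values: 2.94 on heme and 2.14 on control for Scnn1b and 4.26 and 2.98 for Scnn1g, against 1.81, 1.23, 3.15 and 1.82 on the scale that adds 32.

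The genes through which aldosterone acts on ENaC pointed mostly the same way. Nr3c2, the mineralocorticoid receptor, was higher in surface cells by 1.90 on heme and 2.05 on control. Sgk1, the kinase the receptor induces, was higher by 3.03 on heme and 2.49 on control. Nedd4l, the ubiquitin ligase that removes ENaC from the membrane and that SGK1 restrains, was higher by 1.26 and 1.51. Hsd11b2, whose enzyme keeps glucocorticoids off the receptor, stood at 0.68 on heme and 0.69 on control, under the size rule. Prss8, the channel-activating protease prostasin, lay the other way, with 6.93 and 6.73 in heme and control surface cells, against 7.90 and 7.96 in heme and control crypt cells. Its difference on heme, -0.97, turned to 0.14 under ribosomal centring, and that on control, -1.23, came to -0.08.

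The chloride loading and exit genes of secretion were higher in crypt than in surface cells. Slc12a2, which encodes NKCC1, had 8.00 and 8.76 in heme and control surface cells, against 11.06 and 11.60 in heme and control crypt cells, a difference of -3.06 on heme and -2.85 on control. Cftr had 8.06 and 7.92 in heme and control surface cells, against 9.81 and 9.97 in heme and control crypt cells. Both crypt arrays exceeded both surface arrays for each of these genes. The calcium-activated anion channel genes did not share this order. Best2, known in the colon from goblet cells, differed by -0.25 on heme and -0.29 on control, and both turned positive under ribosomal centring. Ano1, the calcium-activated chloride channel TMEM16A, had 9.67 and 10.41 in heme and control surface cells, against 7.76 and 8.29 in heme and control crypt cells. Ano1 also marks interstitial cells of Cajal. The summed linear signal of 6 other markers of those cells was 1961 and 2050 in heme and control surface cells, against 2100 and 2702 in heme and control crypt cells. Thbs4 was the most abundant, at 10.48, 10.63, 10.30 and 10.47 on the heme surface, control surface, heme crypt and control crypt arrays. The higher crypt sums rest on Kit, which is also listed as a goblet and deep crypt secretory marker. Kit had 6.35 and 7.37 in heme and control surface cells, against 8.84 and 9.82 in heme and control crypt cells. Of the 6 markers, 2 had a surface-crypt difference above 0 and 4 below 0 on each diet. The part of these markers in the Ano1 values was not tested.

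Of the potassium channel genes, 4 were assigned to the secretory arm for their role, and Kcnk5 to neither. Kcne3, the beta subunit that holds KCNQ1 open in intestine, was lower in surface cells, at -3.38 on heme and -2.96 on control. Kcnq1 itself was lower, at -2.39 on heme and -2.29 on control. The calcium-activated channel gene Kcnn4 was lower, at -2.90 on heme and -2.77 on control. All 3 lay on the crypt side with both diets. Kcnk5, a pH-sensitive leak channel, was instead higher in surface cells, at 9.03 and 9.88 in heme and control surface cells, against 7.13 and 7.20 in heme and control crypt cells, a difference of 1.90 on heme and 2.68 on control. Kcnma1, the large-conductance channel of colonic potassium secretion, lay at -0.68 on heme and -1.22 on control as the mean of 2 probe sets. These lay at -0.41 and -0.96 on heme and at -1.32 and -1.12 on control. The control call was lost with a floor of 6.5, on the scale that adds 32 (-0.73) and under ribosomal centring (-0.07). The value on heme turned to 0.43 under ribosomal centring. Between diets the 2 probe sets disagreed, as described with the heme values.

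Among cation-chloride cotransporters other than Slc12a2, Slc12a8, a less studied member of the family, was lower in surface cells, at -3.29 on heme and -3.28 on control. The potassium-chloride cotransporter gene Slc12a7 differed by 0.13 on heme and 0.72 on control. The basolateral anion exchanger gene Slc4a2 was higher in surface cells by 1.45 on heme and 1.62 on control. Slc4a1, the erythrocyte anion exchanger, stayed between 4.84 and 5.11.

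Water channels had no common order. Aqp8, a water channel of surface colonocytes, had 13.11 and 12.50 in heme and control surface cells, against 9.90 in heme crypt and 7.34 in control crypt cells. It was 9.25-fold higher in surface cells on heme and 35.6-fold higher on control. Aqp1, a water channel of erythrocytes and capillary endothelium, had the opposite order: 5.44 and 5.73 in heme and control surface cells, both below the floor, against 8.22 and 8.998 in heme and control crypt cells. The summed linear signal of 12 endothelial markers was 2044 and 2057 in heme and control surface cells, against 874 and 1364 in heme and control crypt cells. The sum over 12 smooth muscle and fibroblast markers was 3693 and 4180 in heme and control surface cells, against 3079 and 5251 in heme and control crypt cells, and the part of both lists in the Aqp1 values was not tested. Aqp4, a basolateral water channel, lay between 9.46 and 9.78 and differed by -0.13 on heme, a sign that turned under ribosomal centring, and 0.32 on control. Aqp11, an intracellular member, lay between 6.76 and 7.17. Aqp3 ranged from 5.22 to 5.49 and Aqp7 from 3.90 to 5.16.

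On the heme diet, crypt cells had higher values of 5 absorptive genes that stood high at the surface: Aqp8, Slc9a3, Atp12a, Car1 and Slc26a3. They were 5 of the 37 members that reached the floor in crypt cells (13.5%), against 1.78% of all genes higher there. No member was lower, against 1.19% of all genes. Aqp8 took position 1 of 10491 genes by size of the heme difference in crypt cells, Slc9a3 position 6, Atp12a 7, Car1 19 and Slc26a3 109. None of the 9 secretory members measured reached 2-fold in crypt cells. For so few genes that is little different from the 1.78% and 1.19% of all genes.

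Aqp8 had 9.90 in heme crypt cells and 7.34 in control crypt cells, which is 5.87-fold higher. For the same gene the surface values, 13.11 on heme and 12.50 on control, remained above both. Slc9a3 was 4.13-fold higher in heme crypt than in control crypt cells, and Atp12a 3.95-fold. For Atp12a the control crypt value was below the floor, and the difference of 1.98 came to 1.41 on the scale that adds 32. Car1 had 11.98 in heme crypt and 10.28 in control crypt cells, a 3.26-fold difference, and Slc26a3 was 2.33-fold higher. Under other scalings of the arrays, with the added 32 and with the strongest probe set, these 5 differences stayed above 2-fold, with ranges from 1.14 to 1.42 for Slc26a3 and from 2.34 to 2.76 for Aqp8.

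The other absorptive members had smaller differences in crypt cells. Car4 stood at 0.65, Slc9a3r1 at 0.64, Slc9a2 at 0.41, Sgk1 at 0.32, Aqp4 at 0.17 and Slc26a2 at 0.06. Scnn1a, Nr3c2 and Hsd11b2 lay at -0.34, -0.30 and -0.21. Scnn1g and Scnn1b, at 0.41 and -0.12, had both crypt values below the floor. These 2 subunits could therefore not be called by the size rule. Scnn1a and the 5 aldosterone genes were not called either, against 1.78% of all genes higher and 1.19% lower. With so few genes, that says little of the pathway. Members assigned to neither arm lay between -0.77 for Aqp1 and 0.77 for Car13. The median heme difference in crypt cells was 0.32 for absorptive members, -0.18 for secretory members and 0.01 for all genes. Among secretory members, 8 of 9 were below 0, from -0.59 for Kcnq1 and -0.54 for Slc12a2 to -0.01 for Slc4a4. The signs of Cftr, Best2, Kcnn4 and Slc4a4 turned under ribosomal centring.

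Markers of other cells moved in the same contrast. On heme, 4 of 12 markers of surface colonocytes passed 2-fold upward in crypt cells: Tmigd1 by 1.68, Krt20 by 1.25, Alpi by 1.15 and Clca4a by 1.04. The list's median was 0.38, and 11 of the 12 lay above 0. Its summed linear signal was 8801 in heme crypt and 8379 in control crypt cells, against 47103 and 44482 in heme and control surface cells. In crypt cells its 2 most abundant markers, Ceacam1 and Lypd8, differed by -0.14 and 0.01. Ceacam1 had 11.71 and 11.85 in heme and control crypt cells, and Lypd8 had 11.57 and 11.56. The crypt sums therefore largely reflect these 2 markers and say little of the others. Of 11 markers of dividing cells, 8 were higher in heme crypt cells, with a median of 1.47 and a summed linear signal of 6066 in heme crypt and 2694 in control crypt cells. Of the 11 crypt base and progenitor markers, 2 were lower, Cdk6 and Lgr5, the second at -1.07. Of 11 goblet and deep crypt secretory markers, 10 were below 0, with a median of -0.48 and none past 2-fold. All 12 endothelial and all 12 smooth muscle and fibroblast markers were below 0, with medians of -0.65 and -0.71, beside -0.77 for Aqp1. The part of these shifts in the members' values was not tested.

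**Figure D3:**
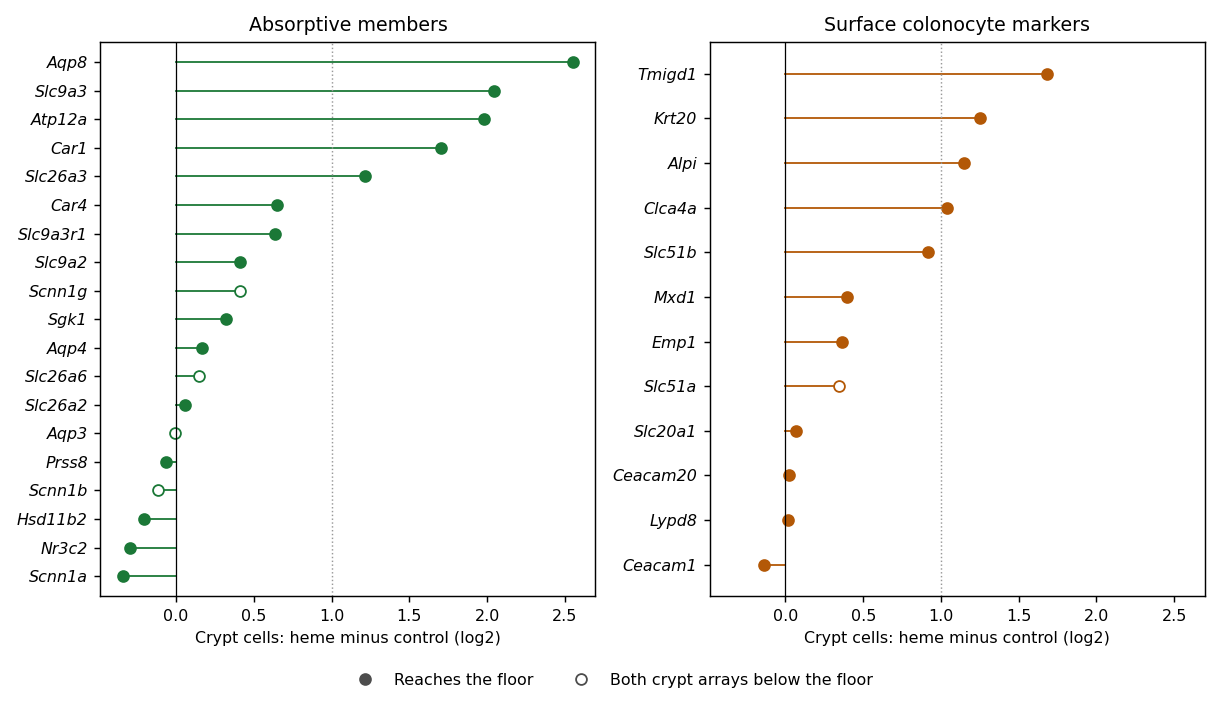
Heme minus control difference of log2 values in crypt cells for the 19 absorptive members, left, and for the 12 surface colonocyte markers, right. Open circles mark genes with both crypt values below the floor, and the dotted line is 2-fold. Aqp8, Slc9a3, Atp12a, Car1 and Slc26a3 pass it on the left, and Tmigd1, Krt20, Alpi and Clca4a on the right.

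In surface cells other members passed 2-fold on heme, although the genes higher in heme crypt cells also had smaller positive differences there, given below. Of the 39 members that reached the floor there, 3 were higher (7.69%), against 3.62% of all genes, and 1 was lower (2.56%), against 2.01% of all genes. Both shares rest on few genes, and the lower one is close to that of all genes. The 3 higher were Scnn1g, Car2 and Kcnma1, and the lower one was Slc4a4. For Kcnma1 the probe set that moved was itself below the floor.

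Slc4a4 encodes NBCe1, a basolateral sodium-bicarbonate cotransporter. It had 6.18 in heme surface cells and 8.58 in control surface cells, which is 5.29-fold lower on heme and placed it at position 12 from the lowest of 10282 genes. In crypt cells it had 8.41 on heme and 8.42 on control. The heme surface array thus stood alone, with the other 3 arrays between 8.41 and 8.58. The surface difference stayed between -2.40 and -1.99 under the alternatives run.

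Scnn1g had 8.87 in heme surface and 7.18 in control surface cells, a 3.21-fold difference, and took position 120 from the highest of 10282 genes. Scnn1b differed by 0.69 and Scnn1a by 0.05, the sign of Scnn1a turning under cyclic loess. The 3 subunits of the channel therefore stood apart in size, and the gamma subunit was the one past 2-fold. Of the aldosterone genes, Sgk1 had 9.93 in heme surface and 9.05 in control surface cells, a difference of 0.87 that became 1.04 under ribosomal centring. Nr3c2, Nedd4l and Hsd11b2 lay at -0.45, -0.35 and -0.22, and Prss8 at 0.19.

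Car2 had 12.44 in heme surface and 11.22 in control surface cells, which is 2.32-fold higher, against 11.26 and 11.01 in heme and control crypt cells. Here too the heme surface array stood apart from the other 3. Car13 was at 0.86 in surface and 0.77 in crypt cells, positive in both compartments and under 2-fold in each. Kcnma1 had 6.00 in heme surface and 4.97 in control surface cells as the mean of its 2 probe sets. One probe set differed by 0.19 between the diets in surface cells and by -0.72 in crypt cells, the other by 1.87 and 1.71. The call for Kcnma1 therefore rests on 1 probe set, which was itself below the floor in surface cells, at 4.99 on heme and 3.11 on control. The mean reached the floor only through the other probe set, at 7.02 on heme and 6.82 on control. The call was lost with a floor of 6.5, and the difference was 0.60 on the scale that adds 32.

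Several members lay under the size rule but on the negative side in surface cells. Slc12a7 was at -0.96, and past 2-fold at -1.04 under cyclic loess. Kcnk5 was at -0.85, Kcne3 and Fxyd4 at -0.79, Slc12a8 at -0.76, Slc12a2 at -0.75, Ano1 at -0.74 and Kcnq1 at -0.69. Members with no surface heme value given in these paragraphs that reached the floor lay between -0.41 for Aqp11 and 0.40 for Fxyd3. Among secretory members 7 of 9 were below 0, with a median of -0.69. Among absorptive members 14 of 19 were above 0, with a median of 0.20, and the median of all genes was -0.04. The 5 genes that were higher in heme crypt cells had smaller positive differences in surface cells: 0.79 for Slc9a3, 0.61 for Aqp8, 0.49 for Atp12a, 0.38 for Car1 and 0.14 for Slc26a3, the last turning to -0.04 under cyclic loess. In the same contrast 4 of the 12 surface colonocyte markers passed 2-fold upward, with a list median of 0.50. Of the 7 crypt base and progenitor markers that reached the floor in surface cells, 6 were below 0 on heme, with a median of -0.74 and none past 2-fold. Of 6 tuft cell markers that reached it, 3 were lower. Of 11 goblet and deep crypt secretory markers, 2 were higher and 1 was lower, with a median of 0.08. The part of these shifts in the members' values was not tested.

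**Figure D4:**
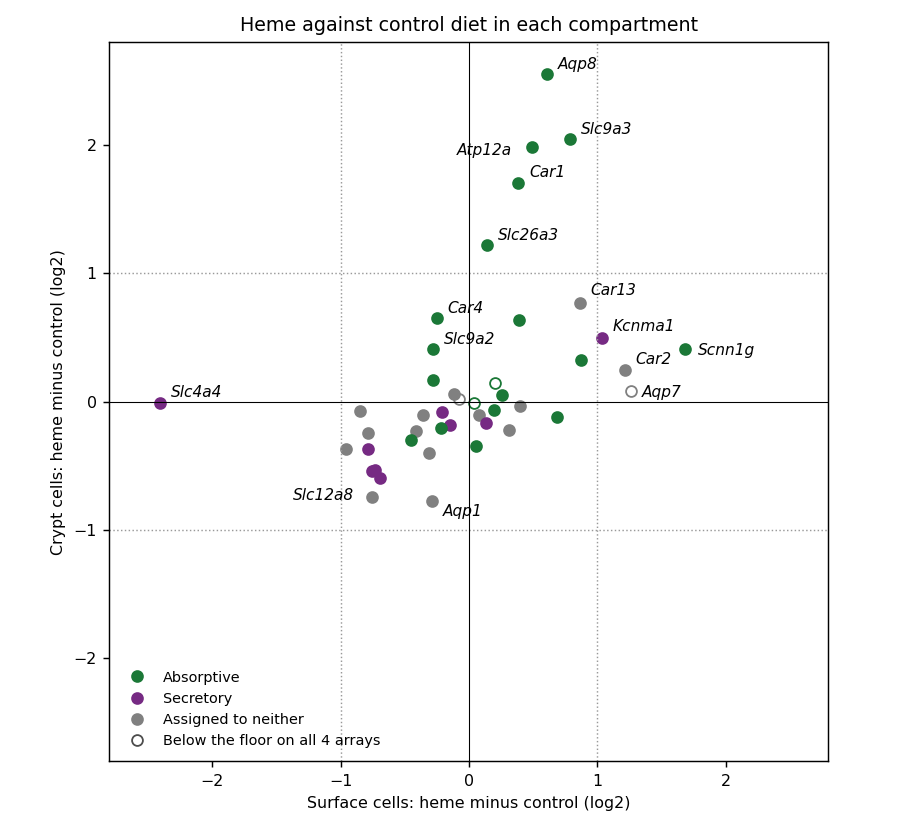
Heme minus control difference of log2 values in surface cells, horizontal axis, against that in crypt cells, vertical axis, for the 44 measured members. Colours mark the arm, open circles mark members below the floor on all 4 arrays and dotted lines mark 2-fold. The 5 crypt genes named above lie over the upper line, with Aqp8 at 2.55, and Slc4a4 lies alone at the left at -2.40. Scnn1g, Car2 and Kcnma1 lie past the right line, with Aqp7, whose values are all below the floor.

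The surface heme difference minus the crypt heme difference was called for 7 members. It was lower for 6 of the 40 that reached the floor on any array (15.0%), against 2.17% of all genes, and higher for 1 (2.50%), against 3.29% of all genes. The 6 were Slc4a4 at -2.40, Aqp8 at -1.94, Atp12a at -1.49, Car1 at -1.32, Slc9a3 at -1.26 and Slc26a3 at -1.08. Scnn1g stood the other way at 1.28. For Atp12a and Slc26a3 the scale that adds 32 took the value under the size rule, to -0.92 for Atp12a and only just short of 2-fold for Slc26a3. This difference uses the same 4 arrays as the contrasts above and is equal to the change of the surface-crypt difference between diets, so for the 5 crypt genes it restates a smaller surface-crypt difference on heme.

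In the ranking of members by the surface-crypt difference, Atp12a was at position 1 and Slc26a3 at 5 on both diets, and Slc9a3 was at 4 on heme and 3 on control. Aqp8 was at position 6 on heme and 2 on control, and Car1 at 19 on heme and 11 on control. Scnn1g was at position 2 on heme and 7 on control, and Slc4a4 at 38 on heme and 28 on control. In all, 40 of the 44 members lay on the same side on both diets, among them Aqp3, Slc26a6 and Slc4a1, which were below the floor on every array. Of the 44, 27 passed 2-fold on both. The share of all genes on the same side, or past 2-fold on both, was not counted. Kcnma1 and Prss8 passed it on the control diet alone, and Car2 and Slc4a4 on heme alone. No difference between diets in these counts was tested.

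Other transport genes of the same families, 97 measured of a list of 105, were counted in the same way. In crypt cells, of the 45 that reached the floor, none was higher on heme, against 1.78% of all genes, and 2 were lower, against 1.19%: Car8, a carbonic anhydrase-related protein, at -1.64 and Ano7, a TMEM16 family member, at -1.20. In surface cells, of 48 that reached the floor, 3 were higher on heme, against 3.62% of all genes: the mitochondrial carbonic anhydrase gene Car5b by 1.91, the membrane carbonic anhydrase gene Car9 by 1.34 and Stk39, the SPAK kinase that activates NKCC1, by 1.08. Ano9 was lower, at -1.07, against 2.01% of all genes. Between surface and crypt, 10 of 44 were higher and 3 lower on heme, against 15.3% and 16.5% of all genes, and 8 of 48 were higher and 4 lower on control, against 12.0% and 13.5%. The chloride channel gene Clcn2 had the largest of these differences, 3.03 on heme and 2.81 on control. Stk39 was lower in surface cells on both diets, at -1.16 on heme and -2.10 on control. The heme difference in surface minus that in crypt cells was higher for 2 of 49, Car5b at 1.85 and Car8 at 1.27, against 3.29% of all genes, and lower for Ano9 at -1.23, against 2.17%.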

How the data were processed

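RNA of 4 laser-captured pools (heme and control diet, surface and crypt cells) was measured on 1 Affymetrix array each. The log2 values per probe set that the authors deposited come from RMA, as the submitters' processing notes name it. The method corrects background, equalises probe distributions and summarises probes, so the values are relative within this set of arrays. Which version was run, and over which arrays, is not given in the sources used here. Precision is limited by the number of arrays, and there were no detection calls.

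The platform annotation named the probe sets: 21789 of 35556 had 1 symbol, 1621 several and 12146 none, and 21698 matched a current symbol. Gene values are means over single-symbol probe sets. Comparisons are differences of log2 values over all 19938 genes. With 1 array per group there is no test, p-value or standard deviation. The size rule is 2-fold with at least 1 array compared at 5.75. A run on simulated data with planted differences past the rule and small assumed noise only checked that the rule was applied as stated. It gives no rate of false calls for these arrays.

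The members, roles, motifs and marker and transport lists were chosen with earlier results of these data known, and the motifs with their matches known. All members could be named, and of the other transport genes up to 5 called per comparison. Marker genes named beyond these were chosen after their values were seen. The alternatives were cyclic loess, centring on ribosomal protein genes, an added linear signal of 32, no floor or 6.5, the strongest probe set, and thresholds of 1.5-fold and 3-fold. Sequence is from RefSeq, and 5 motifs were searched in 250 bases before each start. Python 3.11.15, numpy 2.4.6, pandas 2.3.3, matplotlib 3.10.9, and R 4.3.3 with limma 3.58.1 were used.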

Additional observations from a re-analysis of the deposited data

Results flagged for a closer look

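Of the 40 members that reached the floor of 5.75 on at least 1 array, 11 had heme differences of opposite sign in surface and crypt cells, and in 3 of them both differences were at least 0.2 on the log2 scale. Car4 stood at -0.25 in surface and 0.65 in crypt cells, a difference of -0.90 between them. Slc9a2 stood at -0.28 in surface and 0.41 in crypt cells, a difference of -0.69. Atp1b3 stood at 0.31 in surface and -0.22 in crypt cells, a difference of 0.53. Each compartment has 1 array per diet, so these differences were not tested, and none of the 3 reached 2-fold. The other 8 had a difference under 0.2 in at least 1 compartment.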

How the results depend on the processing

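No paired analysis was possible because each group is 1 array of pooled mice and the labels carry no replicate numbers, and no replicate could be left out. Centring on ribosomal protein genes brought the median heme difference of all genes to 0.15 in surface and 0.21 in crypt cells, with 530 genes higher and 139 lower in surface cells, against 372 and 207 as reported, and 328 higher and 59 lower in crypt cells, against 187 and 125. Between surface and crypt cells, relative to medians of all genes moved to 1.06 on heme and 1.10 on control, it gave Aqp11 1.04 on heme and Car12 1.06 on heme and 1.01 on control, each positive where the reported value was negative. The median of all members became 2.06 on heme and 1.86 on control, against 0.95 and 0.71 as reported, and that of secretory members -0.90 on control. On control 6 members were then lower in surface cells, against 10, without Cftr, Fxyd3, Kcnma1 and Prss8. In surface cells 5 were higher on heme, against 3, with Car13 and Sgk1 added. Cyclic loess gave 2 members lower on heme in surface cells, against 1 as reported, beside 209 of 10282 genes. Without a floor, 2 members were higher in the difference of the heme differences, against 1, with Aqp7 added, beside 399 of 19938 genes. At 1.5-fold, 8 members were higher and 3 lower on heme in crypt cells, beside 618 and 587 of 10491 genes. In surface cells 8 were higher and 9 lower, beside 1084 and 814 of 10282 genes. Aqp8, Slc9a3 and Car13 were then higher in both compartments, and the share of all genes that were so was not counted. The difference between compartments was then higher for 3 members and lower for 10, beside 1126 and 912 of 11147 genes. At 3-fold, 1 member was higher on heme in surface cells, beside 141 of 10282 genes. The difference between compartments was higher for 0 and lower for 2, beside 120 and 35 of 11147 genes. The cause of these changes was not tested, apart from the thresholds and the floor, which change the counts by construction. A floor of 6.5 and the strongest probe set kept every member count within 1.5 times. Dim values limit Scnn1b, Scnn1g, Fxyd4 and Atp12a in crypt cells and Aqp1 in surface cells.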
